A study of Arabidopsis thaliana with 15 samples.

Results

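CLV3p cells and FILp cells, a stem cell population and an organ primordium population of the Arabidopsis thaliana shoot apex, were compared over 6 arrays, 3 of each population, out of 15 arrays in the series. The arrays were taken by their titles, CLV3p rep1 to rep3 and FILp rep1 to rep3. CLV3p and FILp name sorted cells from plants 24 days old. The sort names point to the promoters of CLV3 and FIL, but the labels describe neither the reporter nor the gate, and they give no genotype beyond these names. Nor do they say whether the replicates were separate sorts, so p-values here cover array-to-array spread alone, which may be technical. The other sorted arrays, 3 of CLV3n (cells without the CLV3p type) and 2 of WUSp, entered the fit and are given below as context without a test. A further 4 unsorted arrays, Protoplast Induced and Uninduced, measured protoplast preparation.

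The shoot apical meristem keeps a small group of stem cells at its summit and forms leaves and flowers on its flanks. CLAVATA3 (CLV3) is a secreted peptide of the stem cells that limits their number by restraining the homeodomain factor WUSCHEL in the cells beneath them. FILAMENTOUS FLOWER (FIL) and its YABBY relatives are transcription factors of the outer, abaxial side of young organs. Auxin accumulates where an organ is about to form, and the boundary around it expresses growth-restricting genes.

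The values are MAS5 signals, an array intensity on a linear scale, and differences are in log2, CLV3p minus FILp, with a standard error (SE, n = 3 arrays a group) from 1 fit of the 11 arrays of sorted cells. A probe set was called at an adjusted p under 0.05 (limma, Benjamini-Hochberg over 15052 tested probe sets). Signals under 19.5, the 20th percentile of the sorted arrays, were treated as the floor. Where raising signals to it moved a difference by over 0.1, the floored difference is added. Median signals of the 6 arrays lay between 155 and 176. Spearman correlations across probe sets were 0.956 to 0.969 within a population and 0.922 to 0.932 between them. The hybridisation control bioC was at 349 on CLV3p 3 and 281 to 331 on the FILp arrays, but at 1198 and 1203 on CLV3p 1 and CLV3p 2. Within the arrays of low bioC, CLV3p is thus represented by 1 array, and only FILp by several. Adjusted p-values there rest on the spread of the FILp arrays and measure none among CLV3p arrays. Values within the arrays of low bioC are given for some of the genes where they change a call or move a value by over 1.5 times. A gene without such a value is not thereby stable. The actin 3'/5' ratio had log2 values of 3.78, 2.76 and 2.50 on the CLV3p arrays and of 2.14, 2.44 and 2.85 on the FILp arrays, so CLV3p 1 stood highest.

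CLV3 had signals of 569, 1220 and 968 on the CLV3p arrays, against 1.83, 6.02 and 4.77 on the FILp arrays. Every FILp value was below the floor, and the groups did not overlap. The difference was 7.87 ± 0.64 (5.49 floored; adjusted p = 2.99e-07). CLV3n gave 12.2, 9.27 and 6.73, also below the floor, and WUSp gave 58.0 and 76.1. The YABBY gene YAB5 had 17.4, 2.43 and 5.34 in CLV3p, all below the floor, against 434, 429 and 490 in FILp, a difference of -6.21 ± 0.65 (-4.53 floored; adjusted p = 4.66e-06). YAB3 had 66.7, 19.0 and 31.9 in CLV3p, against 390, 361 and 443 in FILp, a difference of -3.53 ± 0.41 (adjusted p = 1.32e-05). The 3 marker genes thus lay on the side that each label names. FIL itself was not named by the probe table used here and was not analysed. In sorted material of this kind, fewer cells of a type and less RNA per cell cannot be told apart.

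Markers of other cells that the sorts could hold were also examined. Of the vascular list 2 of 4 genes passed the filter on dim signals and 0 were called, with summed signals of 258 to 297 in CLV3p and 316 to 402 in FILp. Of 5 guard cell and trichome genes 1 passed the filter and was not called, with sums of 76.3 to 183 in CLV3p and 147 to 202 in FILp. SPCH and MUTE, which define the stomatal lineage, were below the floor on all 6 arrays. The mesophyll and senescence list summed to 913 to 1314 in CLV3p and 1053 to 2042 in FILp. Of its 3 tested genes 2 were called. The photorespiration gene HPR was lower in CLV3p (-1.34 ± 0.32; adjusted p = 0.0075), and within the arrays of low bioC it had -1.30 (adjusted p = 0.0808). SAG101, a senescence gene, was higher (0.83 ± 0.27; adjusted p = 0.0354; 1.51 within the arrays of low bioC), and this call was lost without CLV3p 3, FILp 2 or FILp 3 (adjusted p = 0.154, 0.136 and 0.0801). The part of such cells in the results below was not tested.

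Across the table, 3407 of 15052 probe sets were called (22.6%), 1575 higher in CLV3p (10.5%) and 1832 lower (12.2%). At 2-fold or more, 665 were higher (4.42%) and 1130 lower (7.51%), and at 4-fold or more 157 were higher and 528 lower. The large differences were thus more often toward FILp. With low signals floored, 18 called probe sets remained at 16-fold or more higher and 87 lower. The 3 CLV3p arrays all lay above the 3 FILp arrays for 3091 probe sets (20.5%) and below them for 2851 (18.9%). The median difference over all tested probe sets was 0.03. Counted over genes with 1 probe set each, 1742 of 8229 were called (21.2%), 866 higher (10.5%) and 876 lower (10.6%), and the median was 0.06. The counts of list members below are read against these gene shares. Without 1 of the arrays, the calls over all probe sets numbered 2455 to 3189.

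**Figure D1:**
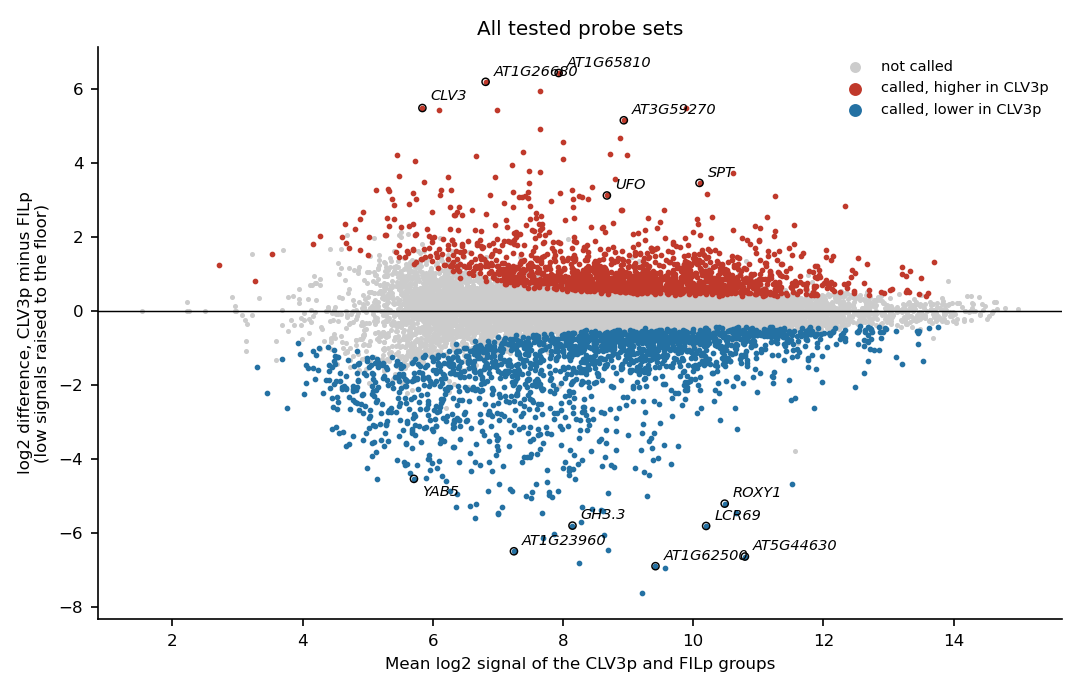
Each point is 1 of the 15052 tested probe sets, with the mean log2 signal of both groups on the horizontal axis and the log2 difference, CLV3p minus FILp with low signals floored, on the vertical axis; red is called and higher in CLV3p, blue called and lower, grey not called, with named genes circled. More blue than red points lie far from 0, with 87 at 16-fold or more lower and 18 at 16-fold or more higher.

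Besides CLV3, the meristem maintenance genes POL and ULT1 were higher in CLV3p, while CLE27 was lower and OBE1 was not called. Of 5 list members, all tested, 3 were higher and 1 lower, with a median of 0.95, but CLV3 is among them by the choice of the sort. POL, a phosphatase that acts downstream of the CLAVATA receptors, had 1344, 1366 and 1543 in CLV3p, against 792, 530 and 775 in FILp (1.04 ± 0.17; adjusted p = 0.000389). ULT1, a chromatin-associated regulator that restricts meristem size, had 3901, 3636 and 6141 in CLV3p, against 2089, 2079 and 2780 in FILp (0.95 ± 0.25; adjusted p = 0.0115). CLV3p 3 was the highest of the ULT1 arrays, and without it the call was lost (adjusted p = 0.0505). OBE1, a PHD-finger gene needed for meristem upkeep, had 1150, 1232 and 1020 in CLV3p, against 971, 754 and 762 in FILp. Its difference of 0.46 (95% interval 0.10 to 0.82; adjusted p = 0.0641) was not called. CLE27, a CLE peptide gene like CLV3, ran the other way at 17.1, 22.9 and 4.37 in CLV3p, against 111, 141 and 103 in FILp (-3.29 ± 0.94; -2.51 floored; adjusted p = 0.0196). Its call was lost without CLV3p 3, FILp 1, FILp 2 or FILp 3 (adjusted p = 0.067, 0.0568, 0.0754 and 0.0549).

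Floral regulators split. UFO, an F-box protein that works with LEAFY on petal and stamen genes, had 1182, 1004 and 1484 in CLV3p, against 144, 111 and 165 in FILp (3.13 ± 0.25; adjusted p = 2.23e-07). UFO was as high in CLV3n (767, 798 and 1474) and WUSp (1790 and 1525) as in CLV3p or nearly so, and FILp alone was low. AGL24, a MADS factor that promotes flowering, had 499, 210 and 289 in CLV3p, against 785, 686 and 885 in FILp (-1.33 ± 0.25; adjusted p = 0.00119). FD, the bZIP partner of the flowering signal FT, overlapped between the groups (0.38, 95% interval -0.47 to 1.22), with 263, 678 and 781 in CLV3p, against 451, 313 and 451 in FILp. It was not called over the 6 arrays. Within the arrays of low bioC, where CLV3p 3 stands alone, its difference was 0.97.

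Organ polarity and lateral organ genes that were called were lower in CLV3p. Of 12 members 8 were tested, 4 were lower and 0 higher, and the median was -1.85. YAB5 and YAB3, the markers above, are 2 of the 4. With low signals floored, the largest difference in the list was that of ROXY1, a glutaredoxin gene needed for petal initiation. ROXY1 had 285, 252 and 183 in CLV3p, against 8430, 7792 and 9945 in FILp (-5.20 ± 0.27; adjusted p = 5.9e-09). PUCHI, an AP2-type factor of young flowers and lateral root primordia, had 162, 94.7 and 65.5 in CLV3p, against 905, 608 and 458 in FILp (-2.66 ± 0.35; adjusted p = 6.14e-05). The adaxial gene PHV differed by -0.05 (95% interval -0.37 to 0.28), and SEU, SHI and the ovule YABBY gene INO were not called either, at -0.41, 0.47 and -1.04. Within the arrays of low bioC, SEU was at 0.08 and INO at -1.59. JAG, NUB, RBE and ROXY2 did not pass the filter.

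The 2 boundary genes differed from each other. PTL, a trihelix factor that restrains growth between sepals, had 8.56, 24.5 and 12.1 in CLV3p, against 301, 354 and 390 in FILp (-4.67 ± 0.40; -4.04 floored; adjusted p = 4.82e-07). PTL was near its FILp level in CLV3n, at 288, 254 and 353, and low in WUSp, at 28.6 and 60. LAS, a GRAS factor of axillary meristems, had 75.8, 98.6 and 67.6 in CLV3p, against 75.6, 87.8 and 85.9 in FILp. Its difference was -0.06 (95% interval -0.68 to 0.56), or -0.29 within the arrays of low bioC. CLV3n was above both groups at 177, 216 and 166.

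**Figure D2:**
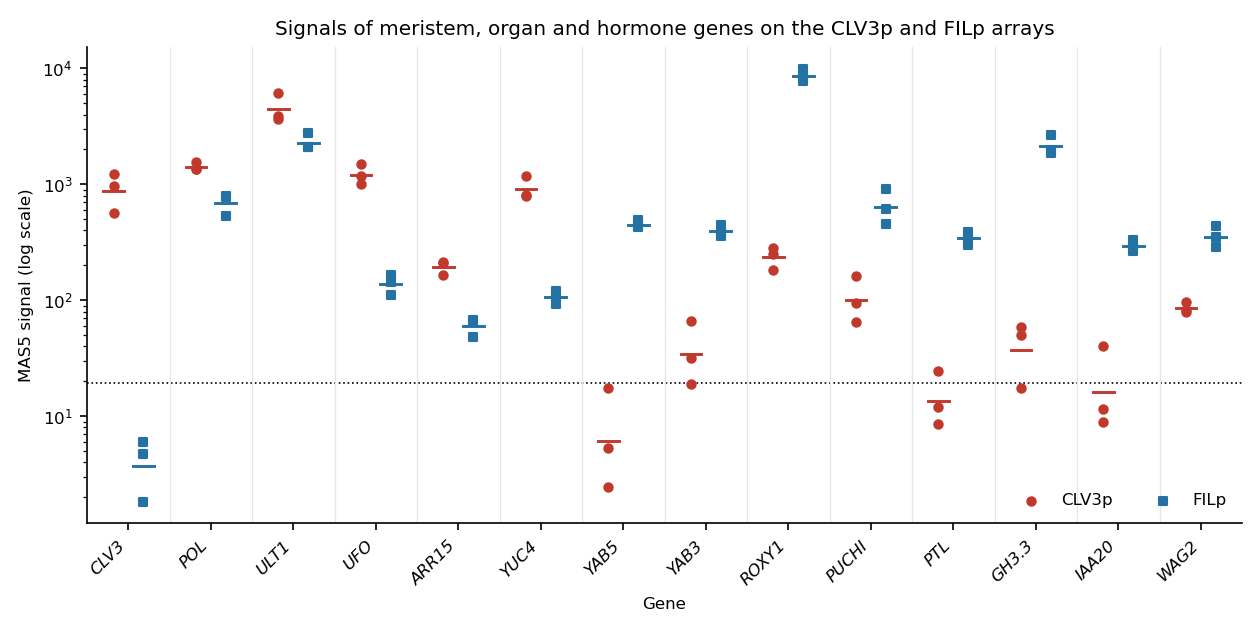
MAS5 signals on a log axis of 14 meristem, floral, organ and hormone genes, with each array as a point (CLV3p red circles on the left, FILp blue squares on the right, n = 3 each), the geometric mean of each group as a bar and the floor of 19.5 as a dotted line. CLV3 in FILp and YAB5 in CLV3p lie below the floor on all 3 arrays. The 14 genes were picked among called genes, and their groups do not overlap. Members of the same lists that overlap, such as LAS, PHV and FD, are not drawn. Over all tested probe sets, CLV3p lay wholly above FILp for 20.5% and wholly below for 18.9%.

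Auxin genes were predominantly lower in CLV3p. Of 18 members 12 were tested, 9 were lower and 1 was higher, and the median was -2.0, against 10.6% of all such genes lower. GH3.3, an enzyme that conjugates auxin to amino acids, had the largest difference in the list. Its signals were 59.1, 50.3 and 17.6 in CLV3p, against 2678, 1858 and 1984 in FILp (-5.84 ± 0.39; adjusted p = 3.52e-07). GH3.17, of the same family, had 35.8, 25.3 and 5.89 in CLV3p, against 192, 387 and 350 in FILp (-4.08 ± 0.55; -3.51 floored; adjusted p = 6.36e-05). WES1, a further conjugating enzyme of the GH3 family, had 295, 597 and 320 in CLV3p, against 1318, 1816 and 1407 in FILp (-1.97 ± 0.24; adjusted p = 2.81e-05). In none of these 3 genes did the groups overlap. Geometric means in CLV3n were 1641, 179 and 1067 for GH3.3, GH3.17 and WES1, against 2145, 296 and 1499 in FILp. Those in WUSp were 390, 47.7 and 711. CLV3n was thus nearer to FILp than to CLV3p in all 3 genes.

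Of the 5 tested Aux/IAA genes, whose products repress the auxin response, 4 were called lower as well. IAA20 had 40.4, 8.97 and 11.6 in CLV3p, against 334, 264 and 291 in FILp (-4.19 ± 0.48; -3.57 floored; adjusted p = 1.09e-05). IAA30 fell by 2.36 ± 0.38 (adjusted p = 0.000271) and IAA29 by 1.84 ± 0.43 (adjusted p = 0.00613). IAA18 fell by 0.54 ± 0.17 (adjusted p = 0.0336), but its call was lost without CLV3p 1, CLV3p 2, FILp 1 or FILp 3 (adjusted p = 0.0633, 0.122, 0.165 and 0.0869) and within the arrays of low bioC (-0.39, adjusted p = 0.307). IAA34, the other tested member, overlapped between the groups and was not called, at 0.32 (95% interval -0.64 to 1.27; adjusted p = 0.662) and at -0.41 within the arrays of low bioC. IAA31 and IAA33 did not pass the filter. Geometric means in CLV3n were 155 for IAA20, 170 for IAA30 and 103 for IAA29, against 295, 158 and 109 in FILp. IAA18 differed, with 709 in CLV3n, against 774 in CLV3p and 1126 in FILp. WAG2, a kinase that acts on auxin efflux carriers, had 96.7, 82.6 and 79.0 in CLV3p, against 438, 349 and 289 in FILp (-2.04 ± 0.26; adjusted p = 2.87e-05). PID2, a relative of the kinase PINOID, was at -3.69 ± 0.76 (-2.02 floored; adjusted p = 0.00219).

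The 1 auxin gene called higher was YUC4, a flavin monooxygenase of auxin synthesis. YUC4 had 789, 1173 and 804 in CLV3p, against 112, 93.0 and 120 in FILp (3.07 ± 0.22; adjusted p = 5.94e-08). CLV3n was closer to CLV3p in YUC4 at 533, 437 and 670, and WUSp closer to FILp at 167 and 205. YUC2 overlapped between the groups (-0.26, 95% interval -0.98 to 0.46) and was at -0.68 within the arrays of low bioC. YUC6 and YUC11 did not pass the filter. In the cytokinin list 2 of 6 genes were tested. ARR15, a feedback regulator that cytokinin induces, had 166, 209 and 214 in CLV3p, against 48.2, 66.5 and 67.1 in FILp (1.70 ± 0.38; adjusted p = 0.00395). RR18 was not called, at 0.60 (95% interval -0.19 to 1.39), or 0.24 within the arrays of low bioC. The 4 gibberellin genes SPY, GID1A, GID1B and GID1C were tested and 0 of them called, with differences from -0.35 to 0.51. GID1B, a gibberellin receptor gene, had 342, 372 and 679 in CLV3p, against 320, 339 and 296 in FILp, so CLV3p 3 stood apart. Its difference of 0.48 (adjusted p = 0.185) was 1.10 within the arrays of low bioC, where CLV3p 3 stands alone. With the bioC level as a block it was 0.87 and called (adjusted p = 0.0176).

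Nuclear genes of photosynthesis were lower in CLV3p. All 10 members were tested, and 7 of them were lower and 0 higher. Their median was -1.22. The Calvin cycle kinase gene PRK had 146, 96.2 and 136 in CLV3p, against 254, 523 and 471 in FILp (-1.68 ± 0.25; adjusted p = 0.000155). The antenna gene LHCB4.1 had 723, 837 and 567 in CLV3p, against 1732, 3122 and 2067 in FILp (-1.67 ± 0.21; adjusted p = 3.2e-05), and its paralog LHCB4.2 fell by 1.37 ± 0.26 (adjusted p = 0.00125). LHCB4.3, the other paralog, was at -0.07 (95% interval -0.57 to 0.42), or -0.50 within the arrays of low bioC. PSBW, not called at -0.68, was at -1.19 within those arrays. With the bioC level as a block PSBW was called (-1.24, adjusted p = 0.00218). RCA, which activates Rubisco, had 610, 871 and 593 in CLV3p, against 1273, 1616 and 1389 in FILp (-1.06 ± 0.17; adjusted p = 0.000342). The photosystem genes PSBY and PSAE-1 fell by 1.42 ± 0.20 and 1.46 ± 0.36 (adjusted p = 7.8e-05 and 0.0104), and PSAE-1 by 2.26 within the arrays of low bioC. PSAN was the smallest call, at -0.79 ± 0.24 (adjusted p = 0.0248), and was lost without CLV3p 2, CLV3p 3, FILp 2 or FILp 3 (adjusted p = 0.0594, 0.0905, 0.11 and 0.0801).

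The summed signal of these 10 genes was 8455, 7292 and 5285 in CLV3p, against 11242, 15056 and 15515 in FILp. The sums in CLV3n (11910 to 17070) and WUSp (14815 and 15203) lay in or near the FILp range, so that CLV3p was the lowest of the 4 populations. In the protoplasting arrays the sum was 14649 and 15176 in Protoplast Induced, against 18332 and 20596 in Uninduced, and LHCB4.1, RCA, PSAE-1 and PSBY were lower there too, by 0.44 to 1.34. Removal of the probe sets called in protoplasting took out these genes. It left 3 photosynthesis genes called lower and a median of -0.73. The part of protoplasting in the CLV3p result was not tested. In the list of chlorophyll synthesis and plastid biogenesis 3 of 17 genes were lower and 0 higher, around a median of -0.03. PORB, the light-dependent protochlorophyllide reductase, had 251, 304 and 366 in CLV3p, against 1409, 2261 and 3241 in FILp (-2.84 ± 0.25; adjusted p = 1.09e-06). CHLM, a methyltransferase of the same pathway, fell by 1.44 ± 0.18 (adjusted p = 2.22e-05). The early steps of tetrapyrrole synthesis in the list, with HEMA2, HEMA3, HEMB1, HEME1 and HEME2, were at -0.33 to 0.32 and not called.

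Transcripts encoded in the plastid did not follow the nuclear genes. Of 69 members 59 were tested, 10 were higher in CLV3p and 1 was lower, and the median was 0.48. rps4, a plastid ribosomal protein gene, had 18876, 11016 and 12739 in CLV3p, against 2238, 1679 and 1903 in FILp (2.84 ± 0.21; adjusted p = 8.58e-08). rps4 was as high in CLV3n as in CLV3p (14298, 13211 and 12042) and lower in WUSp (4410 and 2848). rpoC2, a subunit of the plastid RNA polymerase, had 906, 459 and 433 in CLV3p, against 194, 117 and 159 in FILp (1.88 ± 0.29; adjusted p = 0.00024). Both held within the arrays of low bioC, at 2.73 and 1.50. rpl14, the only plastid gene called lower, had 427, 305 and 514 in CLV3p, against 1195, 828 and 1026 in FILp (-1.31 ± 0.28; adjusted p = 0.00303). rbcL, which encodes the large Rubisco subunit, was at 0.31 and not called.

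The count of plastid genes higher in CLV3p moved with single arrays. It was 4 without CLV3p 1 or FILp 2, 6 without FILp 3 and 15 without CLV3p 3, and 5 within the arrays of low bioC, where the median was 0.18. CLV3p 1, the array with the highest actin 3'/5' ratio, had the highest summed signal of the 59 genes at 152405, against 86228 and 98047 on the other CLV3p arrays and 73214 to 82574 on the FILp arrays. Protoplasting moved these genes strongly, with sums of 267990 and 232752 in Protoplast Induced, against 115189 and 108869 in Uninduced, and the 11 called genes, rpl14 included, were higher in Protoplast Induced. After removal of the probe sets called in protoplasting, 0 plastid genes were called higher and 0 lower. The median of the plastid genes left was -0.145. The part of protoplasting and of the actin ratio in the difference was not tested. The groups overlapped for cemA and rpoC1, 2 of the 10 genes called higher. Within the arrays of low bioC, cemA had 0.13 in place of 1.03 and rpoC1 0.56 in place of 1.70, neither called (adjusted p = 0.791 and 0.401).

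**Figure D3:**
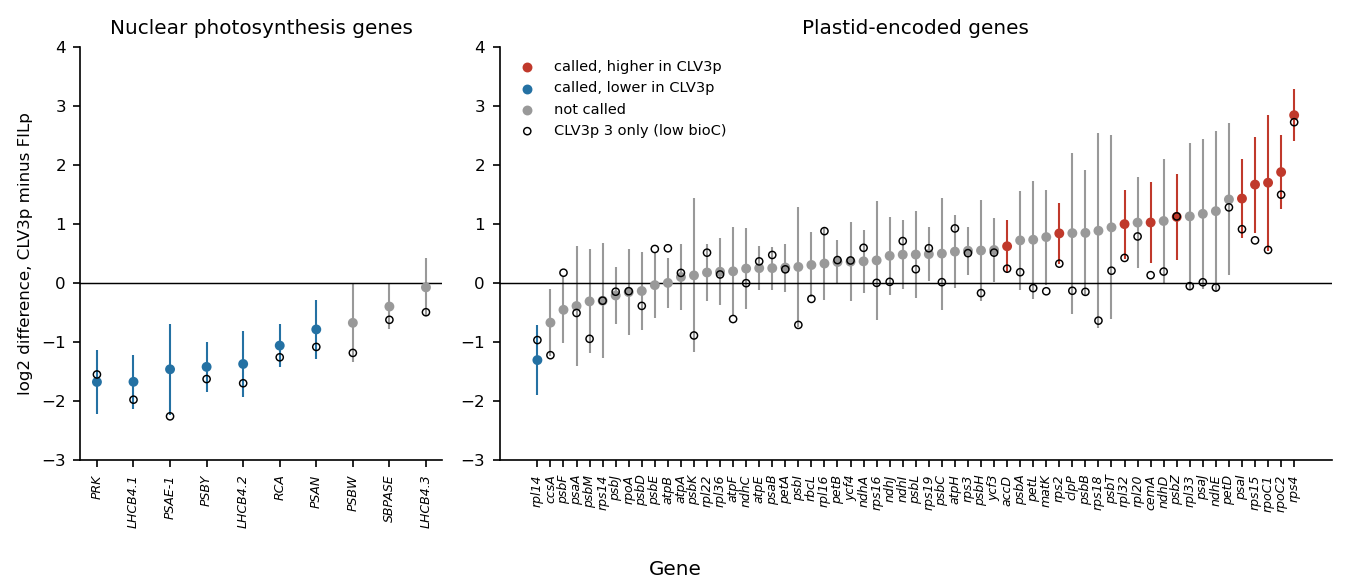
log2 differences, CLV3p minus FILp, of the 10 nuclear photosynthesis genes (left) and the 59 plastid-encoded genes (right), with 95% intervals as lines, red for called and higher, blue for called and lower, grey for not called, and open circles for CLV3p 3 alone against FILp. All 10 nuclear genes lie below 0, with a median of -1.22, and most plastid genes lie above 0, with a median of 0.48.

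Genes of chromatin and silencing that were called were higher in CLV3p. Of 21 members 19 were tested, 8 were higher and 0 lower (against 10.5% of genes higher), and the median was 0.50. Without 1 array the count was 6 or 7. AGO7, the Argonaute of the trans-acting siRNA pathway that patterns leaf polarity, had 1205, 873 and 569 in CLV3p, against 144, 172 and 230 in FILp (2.24 ± 0.25; adjusted p = 9.3e-06). AGO7 was high in CLV3n and WUSp as well, at 609 to 826 and at 1008 and 860. CHR40, a Snf2-type ATPase of RNA-directed DNA methylation, had 1683, 1490 and 1549 in CLV3p, against 473, 407 and 510 in FILp (1.77 ± 0.15; adjusted p = 6.34e-07). CHR40 was above CLV3n (645 to 659) and WUSp (697 and 599) too. The remodeller genes CHR18, CHR17 and CHR24 were higher by 1.32 ± 0.25, 0.93 ± 0.19 and 0.89 ± 0.17 (adjusted p = 0.0011, 0.00217 and 0.00122). chr31, a relative of CHR40, had 71.9, 62.4 and 60.7 in CLV3p, against 20.7, 14.4 and 3.96 in FILp (2.62 ± 0.68; 1.71 floored; adjusted p = 0.0115), and within the arrays of low bioC it was not called (adjusted p = 0.199), nor with the bioC level as a block (adjusted p = 0.0672).

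DNA repair genes were higher for 6 of 20 tested members and lower for 1, with a median of 0.47. UNG, the uracil DNA glycosylase, had 888, 819 and 1326 in CLV3p, against 302, 275 and 312 in FILp (1.74 ± 0.22; adjusted p = 2.63e-05). FANCM, a helicase that limits crossovers, had 337, 322 and 420 in CLV3p, against 168, 156 and 195 in FILp (1.05 ± 0.23; adjusted p = 0.0032). ATMND1, known from meiotic recombination, was higher by 1.03 ± 0.19 (adjusted p = 0.000902), and the base excision gene ATNTH1 by 0.65 ± 0.17 (adjusted p = 0.01). CHR24, named above, belongs to this list too. DRT100, named for DNA damage tolerance but coding for a leucine-rich repeat protein, had 168, 121 and 110 in CLV3p, against 272, 368 and 354 in FILp (-1.33 ± 0.25; adjusted p = 0.00118). Both UNG and DRT100 were lower in Protoplast Induced than in Uninduced, by 0.59 and 0.98. For UNG that is opposite to its difference in CLV3p, and for DRT100 it is the same direction.

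Cell division genes differed little. In the cell cycle list 1 of 12 tested members was higher and 0 lower, with a median of 0.27. That gene, CDC27a, a subunit of the anaphase-promoting complex, was at 1.12 ± 0.35 (adjusted p = 0.0288) and was lost without CLV3p 2, CLV3p 3, FILp 2 or FILp 3 (adjusted p = 0.0871, 0.0981, 0.0931 and 0.0852) and with the bioC level as a block (adjusted p = 0.167). The mitotic kinase gene AUR1 had 1821, 1570 and 1561 in CLV3p, against 1711, 1737 and 1974 in FILp (-0.13, 95% interval -0.44 to 0.18). Of 7 histone genes 1 was called, HTB2, at 0.60 ± 0.17 (adjusted p = 0.0176), and it was lost without CLV3p 2, CLV3p 3 or FILp 2 (adjusted p = 0.0687, 0.0583 and 0.0844). The H2B gene HTB1 had 7889, 6941 and 7496 in CLV3p, against 7968, 6797 and 8241 in FILp (-0.04, 95% interval -0.32 to 0.24).

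Wall genes moved in both directions. Of 29 wall-loosening genes 12 were tested, 4 were lower, 3 were higher, and the median was -0.48. The expansin genes EXPB3 and EXPA4 both had -2.04, with SEs of 0.29 and 0.36 (adjusted p = 0.000107 and 0.000718), and EXPA15 fell by 1.05 ± 0.22 (adjusted p = 0.00279). Within the arrays of low bioC, EXPA4 had -1.32 and EXPA15 -0.68. XTH32, a xyloglucan-modifying enzyme, fell by 1.49 ± 0.33 (adjusted p = 0.00365; -2.32 within the arrays of low bioC), while its relative XTH16 had 943, 1461 and 743 in CLV3p, against 343, 427 and 261 in FILp (1.58 ± 0.27; adjusted p = 0.000516). EXLA1, an expansin-like gene, was at 1.33 ± 0.29 (adjusted p = 0.00423) and, within the arrays of low bioC, at 1.11 (adjusted p = 0.0665). Among genes of wall synthesis and pectin, 2 of 15 tested were higher and 4 lower. GH9B13, of the endoglucanase family, had 13168, 7070 and 10146 in CLV3p, against 3581, 3338 and 3872 in FILp (1.45 ± 0.19; adjusted p = 5.18e-05). The pectin methylesterase gene ATPMEPCRB had 159, 156 and 158 in CLV3p, against 805, 510 and 561 in FILp (-1.96 ± 0.29; adjusted p = 0.000145).

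Few epidermis and cuticle genes could be named. Of 4 tested members 1 was lower and 1 was higher. SHN3, an AP2-type regulator of cuticle genes, had 628, 552 and 375 in CLV3p, against 74.7, 45.8 and 65.9 in FILp (3.06 ± 0.38; adjusted p = 2.74e-05). SHN3 was below the floor in WUSp (6.32 and 16) and at 110 to 203 in CLV3n. CR4, a receptor kinase of the epidermis, differed by 0.18 (95% interval -0.19 to 0.54). The gene called lower, AT4G13840 (CER26, of wax synthesis), was below the floor on all CLV3p arrays, and its call (-3.47 ± 1.02; -1.85 floored; adjusted p = 0.0219) was lost without FILp 1, FILp 2 or FILp 3 (adjusted p = 0.0872, 0.0854 and 0.0697) and with the bioC level as a block (adjusted p = 0.0735).

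Among glutathione transferase, P450 and glycosyltransferase genes, calls lower in CLV3p outnumbered higher ones. Of 88 members 42 were tested, 15 were lower and 6 higher, and their median was -0.09. CYP71B22 had 14.7, 41.2 and 23.1 in CLV3p, against 550, 385 and 482 in FILp (-4.28 ± 0.39; -4.14 floored; adjusted p = 1.09e-06). CYP71B23, at 2.84, 3.21 and 2.12 in CLV3p and so below the floor, had 182, 136 and 228 in FILp (-6.05 ± 0.77; -3.19 floored; adjusted p = 2.97e-05). The transferase gene GSTU27 was at -3.10 ± 0.27 (adjusted p = 6.97e-07) and the glycosyltransferase gene UGT71C3 at -3.06 ± 0.23 (adjusted p = 1.32e-07). The enzymes that add glucose to cytokinin went opposite ways. UGT76C1 had 51.7, 24.1 and 4.07 in CLV3p, against 126, 186 and 147 in FILp (-3.14 ± 0.78; -2.38 floored; -5.22 within the arrays of low bioC; adjusted p = 0.00841). UGT76C2 had 1056, 876 and 1205 in CLV3p, against 376, 659 and 490 in FILp (1.07 ± 0.20; adjusted p = 0.00105). Members of this list can share sequence, and how far the probe sets separate them was not tested.

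Among transporters, 1 of 11 tested genes was higher and 3 were lower. SWEET1, a glucose carrier, had 425, 428 and 350 in CLV3p, against 74.4, 88.7 and 108 in FILp (2.16 ± 0.21; adjusted p = 1.52e-06). SWEET17, a fructose carrier of the vacuole, fell by 1.66 ± 0.36 (adjusted p = 0.00332), the glucosinolate carrier GTR1 by 1.52 ± 0.26 (adjusted p = 0.000632) and AT1G68570 (NPF3.1) by 2.25 ± 0.36 (adjusted p = 0.000316). In the list of wound, calcium and early stress genes 2 of 19 were higher and 3 lower, with sums of 19364 to 27357 in CLV3p and 19125 to 27512 in FILp. Hsp70-2 was higher by 1.03 ± 0.18 (adjusted p = 0.000459), and the ubiquitin ligase gene PUB23 fell by 1.62 ± 0.30 (adjusted p = 0.00106; -2.50 within the arrays of low bioC). EMS1, a receptor kinase that specifies the anther tapetum, had 548, 501 and 351 in CLV3p, against 2099, 1975 and 1916 in FILp (-2.12 ± 0.18; adjusted p = 5.19e-07). In the list of anther, ovule and meiosis genes, with 6 tested, EMS1 was the only one lower, and the 1 higher, ZYP1b at 0.85, was lost without any 1 of CLV3p 1, CLV3p 2, CLV3p 3, FILp 1 and FILp 2 (adjusted p = 0.0659, 0.077, 0.0629, 0.0917 and 0.101) and within the arrays of low bioC (adjusted p = 0.133).

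The related bHLH genes SPT and ALC lay on opposite sides. SPT, a bHLH factor of carpel margins, had 4015, 3300 and 3644 in CLV3p, against 328, 362 and 300 in FILp (3.47 ± 0.16; adjusted p = 4.24e-10). Its close relative ALC, a bHLH factor of fruit opening, had 339, 299 and 325 in CLV3p, against 759, 1257 and 1146 in FILp (-1.68 ± 0.20; adjusted p = 1.74e-05). AT1G22490 (bHLH94) had 45.9, 41.8 and 60.8 in CLV3p, against 936, 886 and 1069 in FILp (-4.30 ± 0.23; adjusted p = 3.11e-09). In this list of bHLH, HD-ZIP, MADS and other factors 1 of 23 tested was higher and 8 were lower. The others include HAT2, an auxin-induced HD-ZIP gene (-1.48 ± 0.19; adjusted p = 3.42e-05), TCP15 (-1.77 ± 0.36; adjusted p = 0.00187) and the MADS gene AGL72 (-1.65 ± 0.32; adjusted p = 0.00144). Of 4 tested B3 factors of the REM family, matched by symbol or synonym, 2 were higher. Family members without such a name are not in this count, so its largest difference need not be that of the family. AT2G35310 (REM23) had 778, 882 and 1036 in CLV3p, against 104, 108 and 97.3 in FILp (3.12 ± 0.22; adjusted p = 4.71e-08). AT4G31615 (REM35) had 867, 1019 and 1095 in CLV3p, against 350, 348 and 321 in FILp (1.54 ± 0.16; adjusted p = 3.46e-06), and CLV3n was no higher than FILp at 306 to 317.

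**Figure D4:**
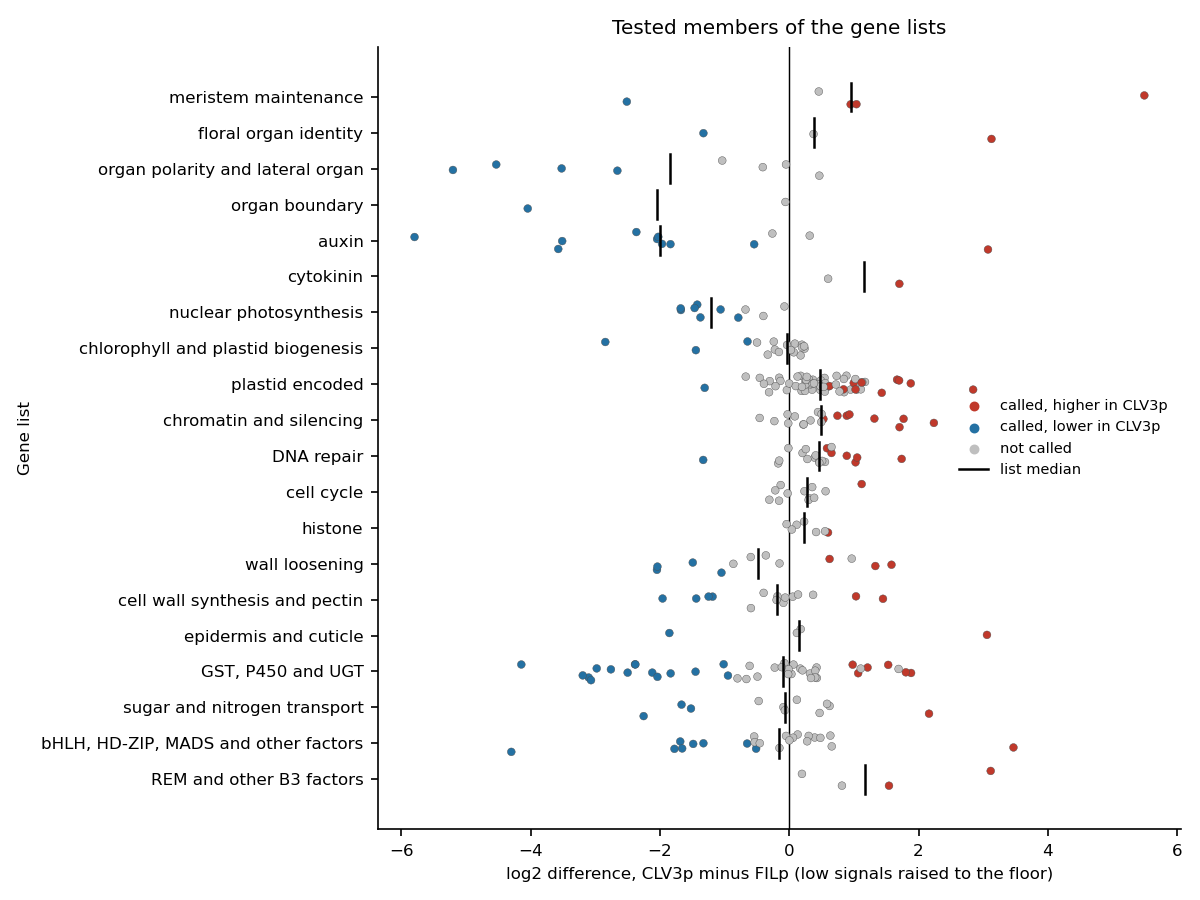
log2 differences, CLV3p minus FILp with low signals floored, of the tested members of 20 gene lists, 1 point per gene, red for called and higher in CLV3p, blue for called and lower, grey for not called, with the list median as a black bar. The auxin median is -2.0 and that of nuclear photosynthesis -1.22, while chromatin and silencing has 0.50 and DNA repair 0.47.

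Of the 15 genes with the largest floored differences in each direction, 11 on each side had only a locus as symbol in the gene table used here. This describes the table, and such genes can have names elsewhere. AT1G65810 led the genes higher in CLV3p with 3824, 3211 and 2285, against 46.8, 3.43 and 47.3 in FILp (7.27 ± 0.93; 6.44 floored; adjusted p = 0.000442). Its spread came from FILp 2, and within the arrays of low bioC it was not called (6.86, adjusted p = 0.0788). AT1G26680 had 1925, 1372 and 1453 in CLV3p, against 3.95, 5.19 and 25.5 in FILp (7.60 ± 0.63; 6.20 floored; adjusted p = 3.77e-06). AT3G59270 had 3311, 2839 and 2662 in CLV3p, against 65.9, 110 and 75.3 in FILp (5.16 ± 0.22; adjusted p = 2.61e-10). IQD26, of a calmodulin-binding family, had 1142, 1156 and 1052 in CLV3p, against 123, 72.4 and 145 in FILp (3.36 ± 0.22; adjusted p = 2.32e-08). AT1G11210 had 5882, 4831 and 6477 in CLV3p, against 320, 570 and 428 in FILp (3.73 ± 0.25; adjusted p = 5.35e-08).

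On the FILp side, AT1G62500 had 64.8, 58.8 and 65.4 in CLV3p, against 6821, 7401 and 8223 in FILp (-6.89 ± 0.19; adjusted p = 5.28e-12). AT5G44630 had 199, 164 and 174 in CLV3p, against 17407, 17470 and 18115 in FILp (-6.63 ± 0.23; adjusted p = 7.32e-11). Both were measured above the floor on all 6 arrays, and the arrays of each group lay close together. The defensin-like gene LCR69 had 126, 179 and 172 in CLV3p, against 6670, 10334 and 9809 in FILp (-5.80 ± 0.23; adjusted p = 1.74e-10). The pectin methylesterase gene PMEPCRF had 75.4, 25.3 and 32.5 in CLV3p, against 740, 1627 and 1581 in FILp (-4.97 ± 0.43; adjusted p = 4.63e-06). AT1G23960 had 4.91, 22.1 and 18.7 in CLV3p, against 1713, 1929 and 1826 in FILp (-7.17 ± 0.46; -6.49 floored; adjusted p = 3.07e-08). On the unsorted arrays AT1G23960 was below the floor, at 3.71 and 2.73 in Protoplast Induced and 4.65 and 4.25 in Uninduced. The labels do not say whether the sorts came from the same plant line. The part of line or preparation in this difference was not tested. Of the 15 higher genes 13 were tested in protoplasting and 8 were called. Of these 8, 6 were higher and 2 lower in Protoplast Induced, with differences from -0.57 to 1.04. ZCF37, a higher gene not tested there, had 72.8 and 58.3 in Protoplast Induced, against 4.17 and 2.07 in Uninduced. Of the 15 lower genes 14 were tested in protoplasting and 5 were called, all lower in Protoplast Induced, from -1.18 to -0.23.

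Some of the calls were shared with protoplasting. Of 13582 probe sets tested in both comparisons, 3186 (23.5%) were called between CLV3p and FILp and 2969 (21.9%) between Protoplast Induced and Uninduced. Calls in both numbered 840, which is 26.4% of the CLV3p calls and 28.3% of the protoplasting calls. Of the 340 higher in CLV3p, 243 were higher and 97 lower in Protoplast Induced, and of the 500 lower in CLV3p, 137 were higher and 363 lower. The part of protoplasting in the differences was not tested.

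CLV3n and WUSp placed these genes in a wider frame, as a description without a test. The mean of CLV3n lay between those of CLV3p and FILp for 14 of the 15 higher and 14 of the 15 lower genes, and that of WUSp for 12 and 14. These genes were chosen for a wide gap between CLV3p and FILp, which by itself favours a place between. Over all calls of 2-fold or more, CLV3n lay between for 572 of 665 higher and 827 of 1130 lower probe sets. WUSp did so for 396 and 710. AT2G15560 was nearly as high in CLV3n (2635, 1992 and 1695) as in CLV3p (2616, 2383 and 2163) and low in WUSp (210 and 143) and FILp (98, 100 and 80.1). AT3G15650 was at 1116, 1042 and 1035 in CLV3p but at 5455 and 7253 in WUSp. AT1G23960 was below the floor in CLV3n (5.88, 9.90 and 5.09) and high in WUSp (2080 and 2398). Over all calls of 2-fold or more, CLV3n was nearer to CLV3p than to FILp for 330 of the 665 higher probe sets and for 179 of the 1130 lower ones (15.8%). WUSp was nearer to CLV3p for 312 of the 665 and for 372 of the 1130 (32.9%). Most of the probe sets lower in CLV3p were thus nearer to FILp in each of the other sorted populations.

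**Figure D5:**
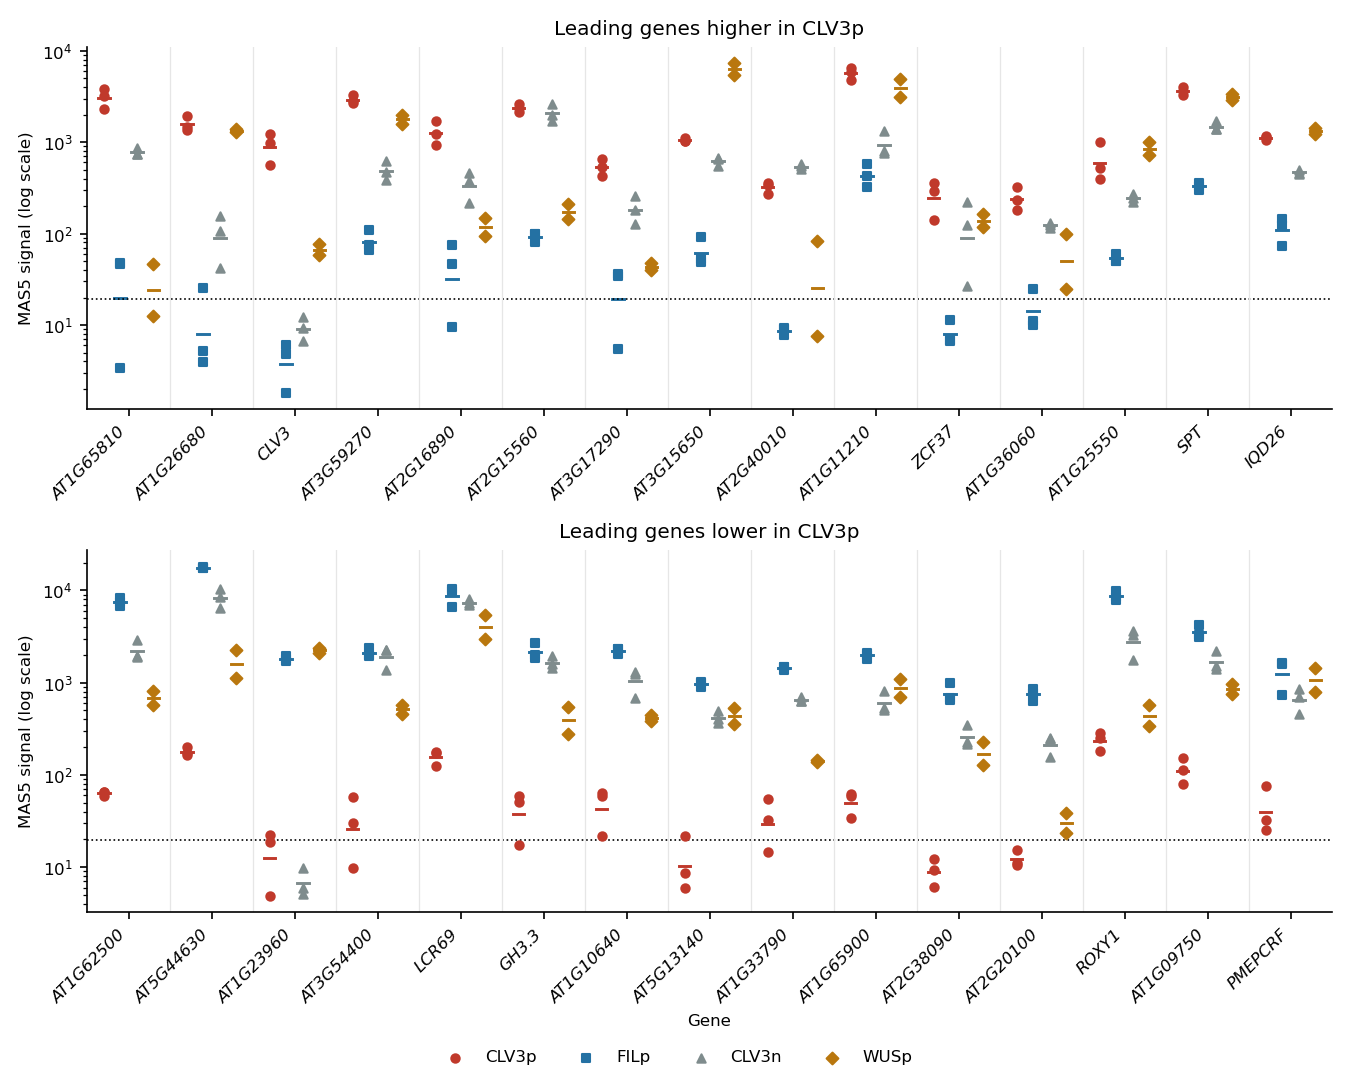
MAS5 signals on a log axis of the 15 genes with the largest floored differences higher (top) and lower (bottom) in CLV3p, with each array as a point in the order CLV3p, FILp, CLV3n and WUSp, the geometric mean as a bar and the floor of 19.5 as a dotted line. CLV3n lies between CLV3p and FILp for 14 of 15 genes in each panel, all chosen for a wide gap between CLV3p and FILp. Over all calls of 2-fold or more it does so for 572 of 665 higher and 827 of 1130 lower probe sets. AT1G23960 is low in CLV3p and CLV3n but high in FILp and WUSp.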

How the data were processed

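Total RNA of sorted cells was hybridised, per the labels, to Affymetrix arrays of 22810 probe sets. The deposited values are MAS5 signals, an intensity on a linear scale, per the submitters' processing notes, which give no version. Their mean between the 2nd and 98th percentile was close to 499.8 on each sorted array, so they carry a common scaling by the authors. Here they were taken to log2 without further normalization. Tests were restricted to probe sets over the 40th percentile of the array on 2 or more of the 11 sorted arrays. The contrast came from limma 3.58.1 (R 4.3.3), using lmFit and a moderated two-sided test (eBayes, trend and robust on), at a Benjamini-Hochberg adjusted p under 0.05. The floor was the 20th percentile of the 11 arrays. Precision is limited by how few arrays there are. The test was also run on simulated data with 200 changed probe sets and independent noise. That simulation held no bioC difference between arrays, so it cannot speak to the bioC difference among the CLV3p arrays.

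Genes were named from a platform annotation table, which pairs 13513 probe sets with 1 gene, 503 with several and the other 8794 with none, control probe sets included. Of the 13513, 13436 matched the RefSeq gene table (TAIR10.1), which gave symbols and synonyms. A gene with more than 1 probe set is represented by the brightest. Genes named are CLV3, YAB5 and YAB3, the 15 highest and 15 lowest floored differences among calls whose arrays do not overlap, and called members of the gene lists in order of size, with members not called where a list is short. The members and lists were chosen with earlier results of these data known, so no list was tested as a set. Genes that matched a list only through a name shared with another gene were removed from it after their values were seen. Protoplast Induced and Uninduced were compared by the same steps in a fit of their own 4 arrays. Replicate numbers did not pair the CLV3p arrays with the FILp arrays, since deviations of same-numbered arrays correlated at -0.07, 0.08 and -0.01. Same-numbered CLV3p and CLV3n arrays were alike in bioC, at 1198 and 1020, 1203 and 1058, and 349 and 348. Whether CLV3p and CLV3n arrays were paired was not tested, and the main fit took all 11 arrays as independent. Alternatives were another normalization, centring, floor, filter and spread estimate, only the 6 arrays, the replicate number or bioC level as a block, the arrays of low bioC, removal of the protoplasting calls, and each array left out in turn.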

Additional observations from a re-analysis of the deposited data

How the results depend on the processing

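The count of called probe sets was 3407 and lay between 2613 and 3600 under the alternatives that kept all 6 arrays of the comparison. It was 3600 with the replicate number as a block, which changed no count of calls by over 1.5 times. Quantile normalization gave 3323, and centring each array on its median gave 3524, with 1948 higher and 1576 lower in place of 1575 and 1832, a shift of all probe sets by 0.07. Without 1 array the probe sets higher in CLV3p numbered 1087 to 1433 and those lower 1333 to 1756. Within the arrays of low bioC 1013 were higher, and this comparison sets CLV3p 3 alone against the FILp arrays, with its spread taken from the other arrays. Of the 32 leading and marker genes 19 were still tested and called after removal of probe sets called in protoplasting, since that removal itself took out the other 13. The called members of the gene lists numbered 118, and 90 of them kept their call without each array in turn. The plastid genes psbI and psbK turned direction within the arrays of low bioC, at -0.71 and -0.89 for CLV3p 3 alone. Over the 6 arrays they were at 0.27 and 0.13 and not called. The cause was not tested. Signals near the floor limit what can be said of the size of differences for dim genes.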
